A study of Mus musculus with 16 samples.

Results

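The 10 eicosanoid synthesis enzymes examined here were Alox5, Alox5ap, Alox15, Lta4h, Ltc4s, Ptgs1, Ptgs2, Ptges, Hpgds and Tbxas1. They were picked out by gene symbol from a count table of 55421 genes, and all 10 passed the filter on low counts that left 21085 genes. Of these, 7 of the 10 also lay above a mean normalised count of 100 per lane, the level the study required before it called a gene. Ltc4s, with a mean of 37.4 counts, Ptgs1, with 73.2, and Ptges, with 94.7, lay below it.

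RNA sequencing was done on sub-capsular sinus macrophages (SSMs) and medullary sinus macrophages (MSMs) of mouse lymph nodes. Male C57B/6 mice carried an intradermal MOC2 tumor, a squamous cell carcinoma line, near the inguinal node, and nodes were taken after 2 weeks from pools of 2 mice. Each pool supplied 2 tumor-draining nodes (tdLN) and 6 non-draining nodes (ndLN), so that ndLN are nodes of tumor-bearing mice and not of healthy ones. The ndLN were contralateral inguinal, axillary and brachial nodes. Living CD45+ CD11b+ CD169+ cells were sorted as SSMs when CD11c- with low side scatter and as MSMs when CD11c+ with high side scatter. The gate left out CD3+, B220+ and Ly6G+ events, which removes T cells, B cells and neutrophils that carry these markers, and it had no marker for mast cells, basophils or eosinophils. Sorting gave 4 groups: SSMs from ndLN, SSMs from tdLN, MSMs from ndLN and MSMs from tdLN. Each group had 2 libraries, and the numbers in their labels were taken here as pool numbers. The label of 1 SSM library from tdLN holds no number, and it was taken as library 1. The study's methods instead count 4 pools as biological replicates, with a pool number for each lane, but the lanes of a library were within sampling noise of each other and were counted here as 1 sample. The p-values below therefore rest on n = 2 libraries a group and measure the spread between them. The 8 libraries held 42972328 to 48130352 reads on genes, and a floor of 3 reads equalled 0.0552 to 0.0769 CPM, the read count scaled to library size.

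Eicosanoids are lipid mediators made from arachidonic acid, which phospholipases free from membranes. In the lipoxygenase branch, 5-lipoxygenase (Alox5) works with its activating protein FLAP (Alox5ap) to make leukotriene A4, which Lta4h converts to the neutrophil attractant leukotriene B4 and Ltc4s to the first cysteinyl leukotriene. The 12/15-lipoxygenase Alox15 oxidises the same fatty acid at other carbons. In the cyclooxygenase branch, Ptgs1 (COX-1) and the inducible Ptgs2 (COX-2) make prostaglandin H2, which Ptges, Hpgds and Tbxas1 turn into prostaglandin E2, prostaglandin D2 and thromboxane A2. Macrophages, mast cells, eosinophils and neutrophils are all known sources of these mediators.

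Promoters are printed for 4 members that the results below turn on, 2 of them called in a comparison (Alox5 and Tbxas1) and 2 called in none (Ptges and Ptgs2), as context for the genes and not as evidence of control. RefSeq promoters on GRCm38.p6, the build of the counts, matched 8 of the 10 members, all but Alox5ap and Alox15. The 250 bases before the RefSeq start are given 5′ to 3′ on the gene's own strand. They lie at chr6:116461179-116461428 on the minus strand for Alox5 and at chr2:30903298-30903547 on the minus strand for Ptges. Those of Ptgs2 lie at chr1:150099781-150100030 and those of Tbxas1 at chr6:38918736-38918985, both on the plus strand. Capitals mark matches on either strand to any of 5 short motifs. The letters searched were GATAA for the core bound by GATA factors, which many blood cell genes carry. They were TATAAA for the TATA box found near the start of many genes, and the palindrome TTGCGCAA for C/EBP factors, which are active in myeloid cells. They were GGGCGG for the GC box bound by general factors, and GAGGAA for the core bound by PU.1 and other ETS factors of macrophages.
Alox5: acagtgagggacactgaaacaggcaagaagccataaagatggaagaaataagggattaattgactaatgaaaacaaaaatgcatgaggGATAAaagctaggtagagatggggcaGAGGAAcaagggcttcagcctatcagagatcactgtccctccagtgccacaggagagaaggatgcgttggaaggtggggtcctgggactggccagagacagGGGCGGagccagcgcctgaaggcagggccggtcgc
Ptges: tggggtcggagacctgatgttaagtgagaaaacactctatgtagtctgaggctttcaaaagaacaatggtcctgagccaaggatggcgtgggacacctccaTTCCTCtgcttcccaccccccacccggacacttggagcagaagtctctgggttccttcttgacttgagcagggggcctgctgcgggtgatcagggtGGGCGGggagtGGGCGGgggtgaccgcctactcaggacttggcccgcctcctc
Ptgs2: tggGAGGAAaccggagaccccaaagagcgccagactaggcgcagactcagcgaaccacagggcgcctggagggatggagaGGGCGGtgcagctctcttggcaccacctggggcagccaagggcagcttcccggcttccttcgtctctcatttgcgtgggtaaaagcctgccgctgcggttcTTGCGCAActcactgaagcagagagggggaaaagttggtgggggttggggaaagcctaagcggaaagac
Tbxas1: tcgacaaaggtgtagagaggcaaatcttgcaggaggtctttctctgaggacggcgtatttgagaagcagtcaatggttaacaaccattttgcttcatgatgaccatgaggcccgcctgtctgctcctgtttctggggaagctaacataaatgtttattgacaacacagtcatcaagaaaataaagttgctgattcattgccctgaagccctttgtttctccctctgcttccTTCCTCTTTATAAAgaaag
The Alox5 window held a GATA core that began 162 bases before the start, an ETS core and a GC box. The Ptges window held 2 GC boxes, 53 and 42 bases before the start, and an ETS core on the opposite strand. In the Ptgs2 window the C/EBP palindrome began 69 bases before the start. In the Tbxas1 window an ETS core on the opposite strand adjoined a TATA box that matched on both strands, and the TATA matches overlapped each other. Among windows of the same length at all 32851 RefSeq promoters, the GATA core was found in 22.6%, the TATA box in 12.4%, the C/EBP palindrome in 0.164%, the GC box in 32.7% and the ETS core in 23.3%. Of the 8 members with a promoter, 7 held the ETS core, 3 held the GC box, 1 held each of the other motifs, and Ltc4s held none. A match is a description of the letters and not a bound site. The RefSeq starts of Ptges and Tbxas1 lie within the longer gene spans of the GENCODE annotation used for the counts, which are chr2:30889471-30929863 and chr6:38875404-39084585.

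Several marker genes bear on what was sorted. Itgax, the gene of the gating marker CD11c, belongs to a list of 9 dendritic cell markers, of which 7 were lower in SSMs than in MSMs in ndLN and 8 in tdLN. Their summed level was 4738 to 5831 CPM in MSMs and 1054 to 2479 CPM in SSMs. Most of each SSM sum was Ccr7, at 601 to 1877 CPM, which was at 1644 to 2100 CPM in MSMs. Ccr7 and Zbtb46 were not called in ndLN. Xcr1 was at 630 to 752 CPM in MSMs and 14.2 to 33.6 CPM in SSMs. Flt3 was at 672 to 852 CPM in MSMs and 27.9 to 59.3 CPM in SSMs, and Clec9a at 132 to 203 and 0.807 to 2.08 CPM. The macrophage list was at 15920 to 23170 CPM in SSMs from tdLN, at 5968 to 9181 CPM in SSMs from ndLN and at 4732 to 5416 CPM in MSMs. Most of each sum was Lyz2, at 12930 to 19310, 5044 to 7940 and 3998 to 4636 CPM in the same order. Siglec1, the gene of the gating marker CD169, was at 59.2 to 70.0 CPM in SSMs from tdLN and at 8.47 to 15.1 CPM in SSMs from ndLN. In MSMs it was at 0.795 to 1.63 CPM in ndLN and at 5.64 to 5.96 CPM in tdLN. Of the 12 genes of the macrophage list, 3 were called higher and 2 lower in SSMs in ndLN, and 4 higher in tdLN. Its member Vsig4 did not pass the filter on low counts. SSMs from tdLN also differed from each other, since the eosinophil granule gene Prg2 stood at 53.9 CPM in library 2 and at 0.583 CPM in library 1. In bulk samples such as these, fewer cells of a type and less RNA per cell cannot be told apart.

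SSMs and MSMs were first compared within ndLN and within tdLN. A gene was called at an adjusted p-value under 0.01, by edgeR's quasi-likelihood test over all 21085 genes, together with a mean count over 100. In ndLN, Alox5 and Alox15 were higher in SSMs and Alox5ap and Tbxas1 were lower, 4 called members in all. Among the 9988 genes above the mean count, 12.7% were called higher in SSMs and 12.8% lower. In tdLN, Alox5 and Alox15 were again called higher in SSMs and no member was called lower, against a background of 10.9% called higher and 7.44% lower. DESeq2 also called 4 members in ndLN and 2 in tdLN, beside 3672 and 2990 of the 9988 genes above the mean count. Of the members, 6 and 5 had an unadjusted edgeR p-value under 0.05, a share that was not taken over all genes. The median log2 fold change of the 10 members was 0.33 in ndLN and 0.47 in tdLN, beside 0.09 and 0.02 over all genes tested.

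**Figure D1:**
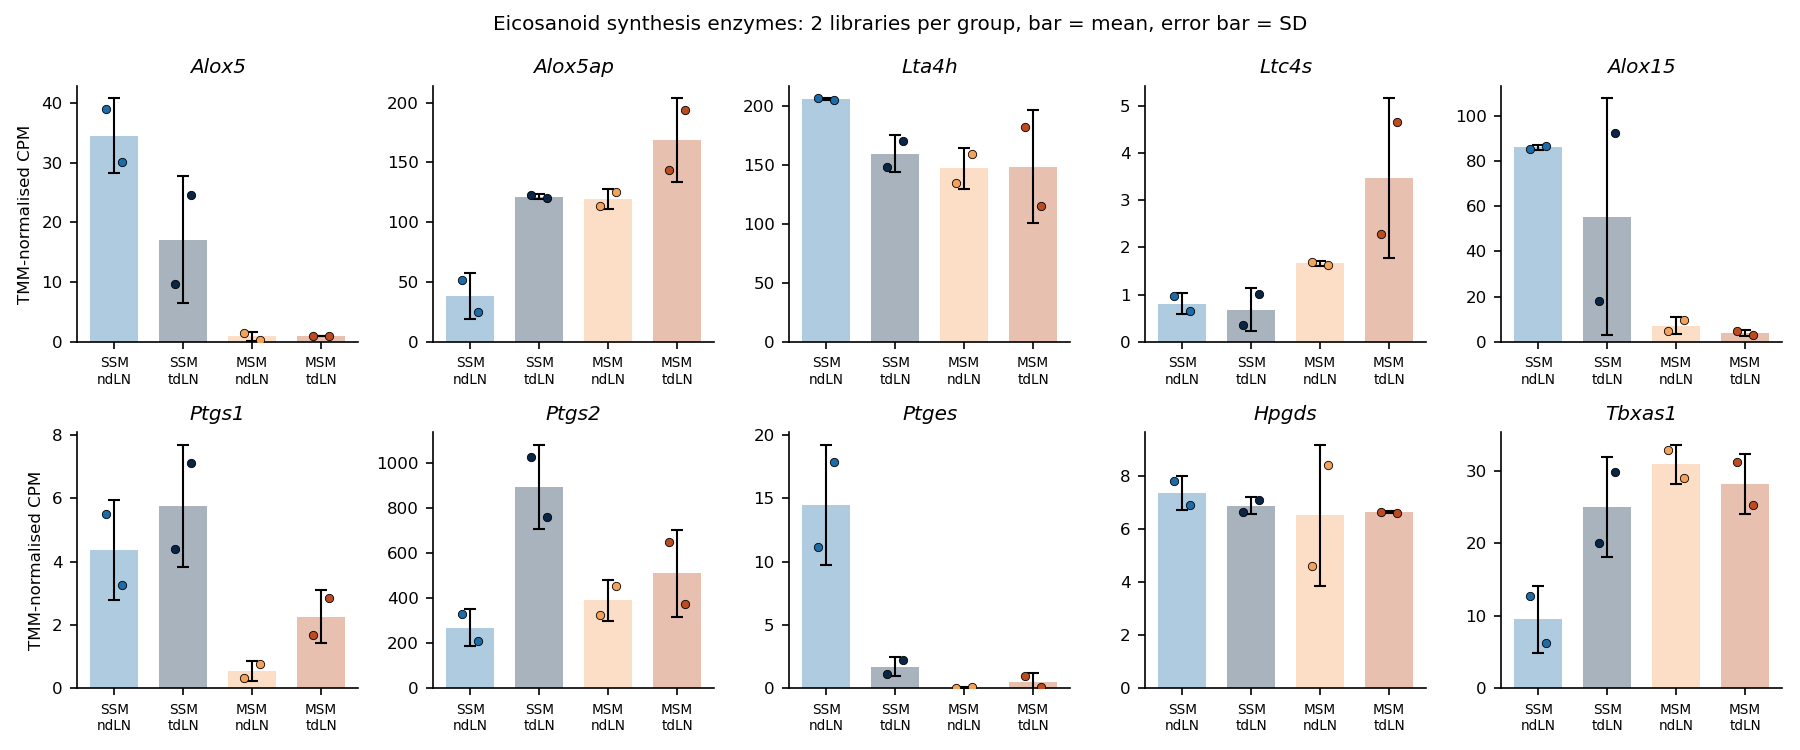
TMM-normalised CPM of the 10 enzymes (vertical axes, each from 0) in SSMs and MSMs from ndLN and tdLN. Points are the 2 libraries of a group, bars their mean and error bars their SD. Alox5 was between 9.60 and 38.9 CPM in the SSM libraries and at most 1.49 CPM in the MSM libraries, whereas Ptgs2 was highest in SSMs from tdLN.

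Alox5, which encodes the enzyme that starts leukotriene synthesis, separated the subsets most clearly among the called members. It was at 38.9 and 30.1 CPM in SSMs from ndLN and at 9.60 and 24.6 CPM in SSMs from tdLN. In MSMs it was at 1.49 and 0.379 CPM in ndLN and at 1.02 and 1.01 CPM in tdLN. Every SSM library thus lay above every MSM library. The log2 fold change of SSMs over MSMs was 5.28 in ndLN (SE 0.635, edgeR adjusted p = 0.000934) and 4.05 in tdLN (SE 0.655, adjusted p = 0.00498). Within SSMs, the tdLN values lay below the ndLN values, but the log2 fold change of -1.06 missed the threshold (SE 0.42, adjusted p = 0.182). It was -0.25 without SSM tdLN replicate 1 and -2.07 without SSM tdLN replicate 2 (adjusted p = 0.838 and 0.0796), and -0.47 and -1.73 without SSM ndLN replicates 1 and 2 (0.617 and 0.129). The call in ndLN was lost without MSM ndLN replicate 2, with a log2 fold change of 4.38 (adjusted p = 0.0167). The call in tdLN was lost without SSM tdLN replicate 2 (adjusted p = 0.0217), MSM tdLN replicate 1 (0.0466) or MSM tdLN replicate 2 (0.0772), where the log2 fold change was 3.00, 4.16 and 3.91.

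Alox15 encodes the 12/15-lipoxygenase. It was at 85.4 and 86.7 CPM in SSMs from ndLN, and at 18.3 and 92.5 CPM in SSMs from tdLN, which did not match each other. In MSMs it was at 4.62 and 9.74 CPM in ndLN and at 4.65 and 2.86 CPM in tdLN. The SSM and MSM libraries did not overlap, but in tdLN the lower SSM library lay much closer to the MSMs. SSMs exceeded MSMs by a log2 fold change of 3.71 in ndLN (SE 0.619, edgeR adjusted p = 0.0042) and of 3.67 in tdLN (SE 0.682, adjusted p = 0.00919). Without SSM tdLN replicate 2, the tdLN difference was 2.37 and no longer called. It was also lost without SSM ndLN replicate 1 or 2 (adjusted p = 0.0129 and 0.0134), MSM ndLN replicate 1 or 2 (0.0282 and 0.0281) and MSM tdLN replicate 1 or 2 (0.0274 and 0.131), and was kept without SSM tdLN replicate 1. The ndLN call was lost without SSM ndLN replicate 1 (adjusted p = 0.028), MSM ndLN replicate 1 (0.0607) or MSM ndLN replicate 2 (0.0552).

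Alox5ap, whose product FLAP presents arachidonic acid to 5-lipoxygenase, showed a different order from Alox5. It was at 51.7 and 25.0 CPM in SSMs from ndLN, the lowest group. It was at 123 and 120.1 CPM in SSMs from tdLN, at 113 and 125 CPM in MSMs from ndLN and at 144 and 193 CPM in MSMs from tdLN. SSMs lay below MSMs in ndLN, with a log2 fold change of -1.65 (SE 0.319, edgeR adjusted p = 0.00814), and in tdLN the difference of -0.48 did not pass the test (SE 0.304, adjusted p = 0.362). The ndLN call was kept without SSM ndLN replicate 1 and lost without any of the other 7 libraries, at adjusted p-values between 0.0111 (without MSM tdLN replicate 2) and 0.0674 (without MSM ndLN replicate 2). Without SSM ndLN replicate 2 the log2 fold change was -1.11 (adjusted p = 0.0136), the smallest of these, and without SSM tdLN replicate 1 or 2 it was -1.65 and -1.66. The remaining cases were without MSM ndLN replicate 1 (adjusted p = 0.0452) and without MSM tdLN replicate 1 (0.0112).

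The enzymes that act on leukotriene A4 did not pass the test in any comparison. Lta4h, which makes leukotriene B4, was at 207 and 206 CPM in SSMs from ndLN, at 149 and 171 CPM in SSMs from tdLN, at 135 and 160 CPM in MSMs from ndLN and at 183 and 115 CPM in MSMs from tdLN. The SSM and MSM ranges overlapped in tdLN but not in ndLN, where the log2 fold change was 0.48 (SE 0.222, edgeR adjusted p = 0.169). Ltc4s, which makes leukotriene C4, was at 0.359 to 1.01 CPM in the 4 SSM libraries and at 1.63 to 4.67 CPM in the 4 MSM libraries. These ranges did not overlap. Its log2 fold change in tdLN was -2.35 (SE 0.58, adjusted p = 0.0312), short of the threshold and on a mean count below the study's minimum. Ltc4s shares 268 exon bases with the antisense gene Gm26542, which held 120 reads over the 8 libraries, and its own reads numbered 16 to 212 per library. The strand setting of the counts is not given in the sources used here, so reads of such pairs may not be told apart.

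The cyclooxygenases differed widely in level, with group means of 0.143 to 1.48 CPM per kilobase of exon for Ptgs1 and of 58.8 to 195 CPM per kilobase for Ptgs2. Ptgs1, the constitutive enzyme, was at 5.50 and 3.25 CPM in SSMs from ndLN, at 4.40 and 7.13 CPM in SSMs from tdLN, at 0.333 and 0.78 CPM in MSMs from ndLN and at 1.67 and 2.86 CPM in MSMs from tdLN. All SSM libraries lay above all MSM libraries. Its log2 fold change in ndLN was 2.97 (SE 0.653, edgeR adjusted p = 0.0144), and without pool in the model the adjusted p-value was 0.00834, but its mean count stayed under the minimum. Ptgs2 did not pass the test between the subsets, with a log2 fold change of -0.60 in ndLN (SE 0.278, adjusted p = 0.169) and of 0.83 in tdLN (SE 0.275, adjusted p = 0.0892).

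Ptges, the inducible prostaglandin E synthase, had most of its reads in SSMs from ndLN. It had 607 and 883 reads there, or 11.2 and 17.9 CPM. In SSMs from tdLN it had 52 and 98 reads, or 1.17 and 2.25 CPM. In MSMs from ndLN it had 0 and 3 reads, and in MSMs from tdLN 41 and 3 reads, the first being 0.994 CPM. In ndLN it was at least 202-fold higher in SSMs than in MSMs, taking 3 counts in each MSM library as the floor. The edgeR adjusted p-value was 0.0005, but a mean count of 94.7 kept it just below the minimum, so that it is not among the called members. Most alternatives that kept this minimum reused the same mean count and so could not call Ptges at any p-value. The single lanes and the fit without a filter took a new mean and also left it uncalled.

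Tbxas1, the thromboxane synthase, was lowest in SSMs from ndLN, as Alox5ap was, while its other groups stood in another order. It was at 12.8 and 6.25 CPM in SSMs from ndLN, at 20.1 and 29.9 CPM in SSMs from tdLN, at 32.8 and 28.9 CPM in MSMs from ndLN and at 31.2 and 25.3 CPM in MSMs from tdLN. SSMs from ndLN lay below all other libraries, and the other 3 groups overlapped. The log2 fold change of SSMs over MSMs was -1.71 in ndLN (SE 0.341, edgeR adjusted p = 0.00948) and -0.15 in tdLN (SE 0.32, adjusted p = 0.817). The ndLN call lay close to the threshold. It was kept without SSM tdLN replicate 1 or 2 and lost without either replicate of the other 3 groups, with adjusted p-values of 0.0114 and 0.054 without SSM ndLN replicates 1 and 2, of 0.0681 and 0.0613 without MSM ndLN replicates 1 and 2, and of 0.0237 and 0.0234 without MSM tdLN replicates 1 and 2. Its exons share 144 bases with the antisense gene Gm42962, which held 167 reads over the 8 libraries. The same holds for Alox5ap with Gm19719, at 189 shared bases and 56 reads, and for Ptgs1 with Gm43621, at 148 shared bases and 1 read.

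Hpgds, the hematopoietic prostaglandin D synthase, was similar in all groups. It ranged from 6.89 to 7.80 CPM in SSMs from ndLN, from 6.64 to 7.08 CPM in SSMs from tdLN, from 4.62 to 8.38 CPM in MSMs from ndLN and from 6.60 to 6.64 CPM in MSMs from tdLN. The log2 fold change between the subsets was 0.18 in ndLN (SE 0.312) and 0.05 in tdLN (SE 0.318), and within each node type the subsets overlapped.

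**Figure D2:**
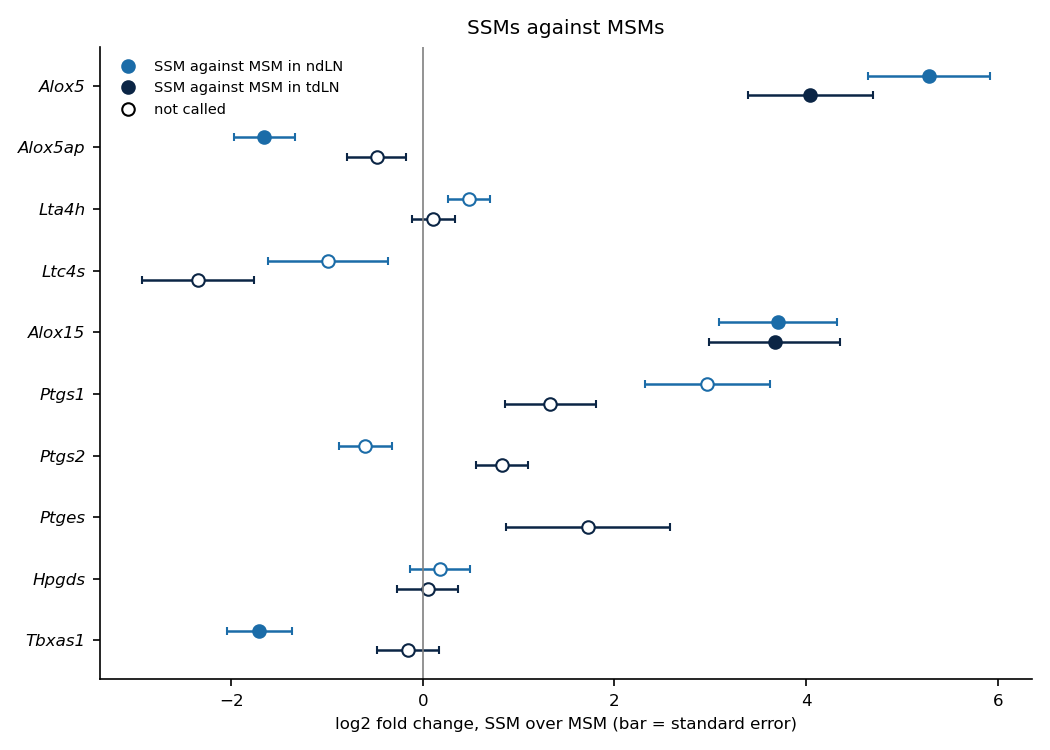
Log2 fold change of SSMs over MSMs (horizontal axis, edgeR fit of the 8 libraries) for the 10 enzymes in ndLN and tdLN, with standard errors as bars. Filled points were called and open points were not. The 2 filled points on the right in each node type are Alox5 and Alox15, and those on the left, in ndLN, are Alox5ap and Tbxas1. No ndLN point is drawn for Ptges because MSMs from ndLN were at or under 3 reads.

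The second question was how each subset differed between tdLN and ndLN. Axillary and brachial nodes were pooled into the ndLN only, so node site and tumor drainage cannot be told apart. None of the 10 members was called by edgeR between tdLN and ndLN in SSMs, where 4.19% of genes were called higher and 2.21% lower. Of these members, 5 had an unadjusted edgeR p-value under 0.05, a share that was not taken over all genes. DESeq2 called 3, namely Alox5ap, Ptgs2 and Tbxas1, all higher in tdLN, beside 1932 of the 9988 genes above the mean count. In MSMs no member was called either by edgeR or by DESeq2, and by the same rule edgeR called 0.0501% of genes. An unadjusted edgeR p-value under 0.05 was found there for 1 member, a share that was likewise not taken over all genes. The median log2 fold change of the members was -0.20 in SSMs and 0.24 in MSMs, beside -0.04 and 0.01 over all genes tested. Both node comparisons share libraries with the subset comparisons above.

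Ptgs2, the inducible cyclooxygenase, stood highest in SSMs from tdLN. It was at 328 and 211 CPM in SSMs from ndLN and at 1025 and 761 CPM in SSMs from tdLN. In MSMs it was at 326 and 455 CPM in ndLN and at 647 and 375 CPM in tdLN. The SSM groups did not overlap and the MSM groups did. The log2 fold change of tdLN over ndLN was 1.74 in SSMs (SE 0.281, edgeR adjusted p = 0.0105), just short of the threshold, and 0.31 in MSMs (SE 0.277, adjusted p = 0.711). The difference between these changes was 1.43 (SE 0.392, adjusted p = 0.168). The SSM value passed at 0.00621 without MSM ndLN replicate 1 and at 0.00625 without MSM ndLN replicate 2. It was 0.126 and 0.0987 without SSM tdLN replicates 1 and 2, and 0.0447 and 0.0936 without SSM ndLN replicates 1 and 2, at log2 fold changes of 1.56 to 1.94. DESeq2 gave an adjusted p of 1.7e-07.

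Alox5ap and Tbxas1 lay higher in tdLN than in ndLN in SSMs without reaching the threshold. The log2 fold change of Alox5ap was 1.67 in SSMs (SE 0.318, edgeR adjusted p = 0.0188) and 0.50 in MSMs (SE 0.304, adjusted p = 0.568). With a library left out, the SSM value of Alox5ap passed only without SSM ndLN replicate 1, at 2.37 (adjusted p = 0.00698). It was 1.14 without SSM ndLN replicate 2 (adjusted p = 0.0411), and the adjusted p-value was 0.16 and 0.146 without SSM tdLN replicates 1 and 2. For Tbxas1 it was 1.42 in SSMs (SE 0.345, adjusted p = 0.0441) and -0.13 in MSMs (SE 0.316, adjusted p = 0.933). Its SSM value was 0.95 without SSM ndLN replicate 2 (adjusted p = 0.2) and 0.89 without SSM tdLN replicate 2 (adjusted p = 0.299). In SSMs the tdLN libraries of both genes lay above the ndLN libraries, near the level of MSMs.

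Ptges moved the other way. In SSMs its log2 fold change of tdLN over ndLN was -3.08 (SE 0.466, edgeR adjusted p = 0.00774), the only member under 0.01 in that comparison, although its mean count was below the minimum and DESeq2 gave 0.0153. With a library left out, the edgeR value stayed under 0.01 only without either replicate of MSMs from tdLN, and it reached 0.126 and 0.112 without SSM tdLN replicates 1 and 2. In MSMs its reads were too few for a fold change, with 41 in library 1 and 3 in library 2 from tdLN. Alox15 had a log2 fold change of -0.91 in SSMs (SE 0.531, adjusted p = 0.36), which rested on SSM tdLN replicate 1, since the other tdLN library lay above both ndLN libraries. Without that replicate it was 0.00318, and without SSM tdLN replicate 2 it was -2.16. In MSMs, Ptgs1 lay higher in tdLN, by 2.00 on the log2 scale, which missed the threshold (SE 0.753, adjusted p = 0.353).

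The test of whether the node effect differed between SSMs and MSMs called no member, with edgeR or DESeq2. By the same rule for calls, edgeR called 0.0801% of genes in that test. An unadjusted edgeR p-value under 0.05 was found for 4 members, a share that was not taken over all genes. The difference of the log2 fold changes was 1.17 for Alox5ap (SE 0.436, edgeR adjusted p = 0.319) and 1.55 for Tbxas1 (SE 0.468, adjusted p = 0.208). For Ptges the edgeR adjusted p-value was 0.175 and that of DESeq2 was 0.00095, so that with DESeq2 the minimum count alone kept it from being called. The median over the 10 members was -0.25, beside -0.01 over all genes tested. Taking Ptges at its bound leaves the members' medians as they are, since it is the highest or lowest member in each comparison with MSMs from ndLN.

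**Figure D3:**
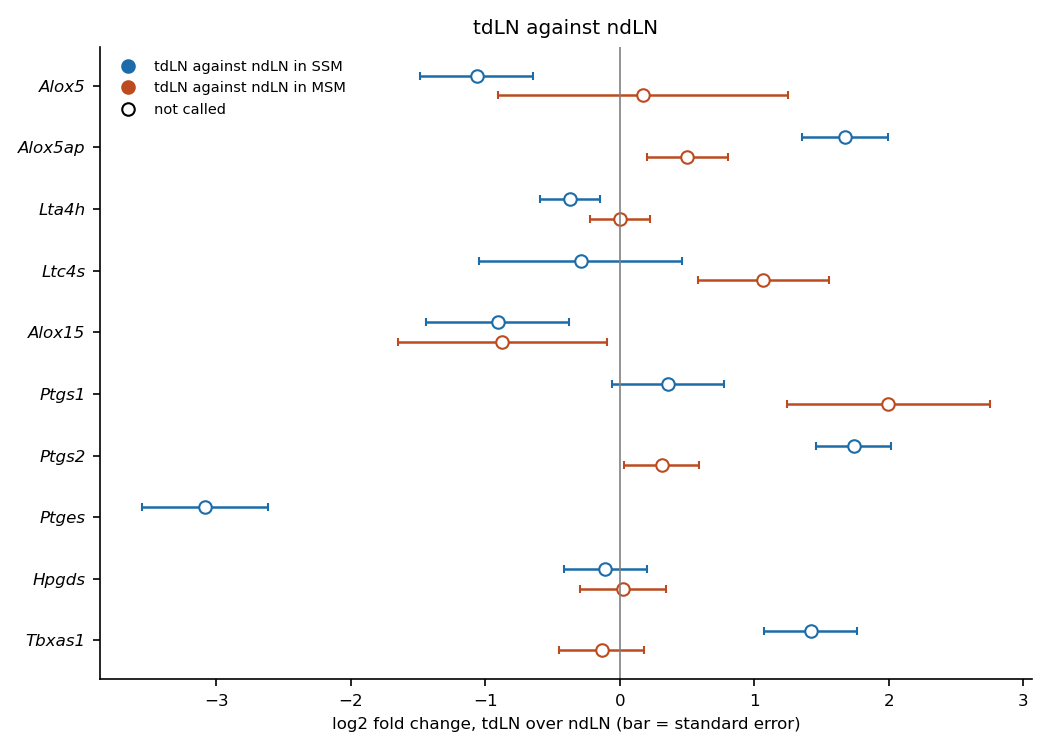
Log2 fold change of tdLN over ndLN (horizontal axis, edgeR fit of the 8 libraries) for the 10 enzymes in SSMs and MSMs, with standard errors as bars. All points are open because no member was called. In SSMs, Ptgs2, Alox5ap and Tbxas1 lie to the right of 0 at 1.74, 1.67 and 1.42, and Ptges lies to the left at -3.08. No MSM point is drawn for Ptges because MSMs from ndLN were at or under 3 reads.

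Levels can be set beside each other between genes only per length, here as CPM per kilobase of exon. In SSMs from ndLN the mean was 58.8 for Ptgs2, 35.1 for Alox15, 33.8 for Lta4h, 27.0 for Alox5ap and 8.40 for Alox5. In SSMs from tdLN it was 195 for Ptgs2, 85.5 for Alox5ap, 26.2 for Lta4h and 22.6 for Alox15. In MSMs from ndLN, Ptgs2, at 85.3, and Alox5ap, at 84.0, led the members, followed by Lta4h at 24.2, and Alox15 stood at 2.92 and Alox5 at 0.227. In MSMs from tdLN, Alox5ap, at 119, and Ptgs2, at 112, were again the highest. The remaining members, Ltc4s, Ptgs1, Ptges, Hpgds and Tbxas1, were at or under 3.69 CPM per kilobase in every group.

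The members fell into patterns that can be described over the 8 libraries, whose groups and pools are shared by all genes. Pearson's r of log2(CPM + 1) was 0.943 between Alox5 and Alox15 and 0.916 between Alox5ap and Tbxas1. Between Alox5 and Alox5ap it was -0.717. Among all genes above the mean count, those most like Alox5 were Bcl2l13, Slc27a6 and Rab44, with r of 0.994, 0.993 and 0.992. Those most like Alox15 were P2rx1, Siglecf and F5, with r of 0.986, 0.982 and 0.981. Siglecf is on the list of eosinophil markers described below. In SSMs, the means of Siglecf, Ccr3 and Il5ra from that list were lower in tdLN than in ndLN, as was that of Alox15. The means of Prg2, Epx, Ear1, Ear2 and Ear6 from that list were higher in tdLN. Those most like Alox5ap were Srp9, Sh3glb1 and Iah1 (r of 0.994, 0.994 and 0.988), and those most like Tbxas1 were St3gal1, Mpdu1 and Slamf9 (0.99, 0.978 and 0.97). For Ptgs2 they were Trdmt1, Nfam1 and Nipa2 (0.976, 0.972 and 0.969), and for Hpgds Zhx3, Foxj3 and Zyg11b (0.914, 0.894 and 0.885). For Lta4h, a gene without a symbol led with 0.953, before Tube1 and Oxnad1 with 0.924 and 0.917. With 8 libraries such values are common, and the gene at rank 100 still had an r of 0.969 for Alox5 and 0.691 for Hpgds.

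Genes that act before, beside and after the members were taken as 4 lists. For the release of arachidonic acid, 11 of 14 genes were tested. In tdLN, SSMs had called increases over MSMs of 2 of these genes, Pla2g4a and Daglb, and SSMs from tdLN exceeded SSMs from ndLN for the same pair. Pla2g4a, the cytosolic phospholipase A2 that frees arachidonic acid, was at 27.5 and 21.1 CPM in SSMs from ndLN and at 80.4 and 68.6 CPM in SSMs from tdLN. It was at 16.5 to 30.8 CPM in all 4 MSM libraries, and the SSMs from tdLN stood above all others. The log2 fold change of tdLN over ndLN in SSMs was 1.62 for Pla2g4a (SE 0.246, edgeR adjusted p = 0.00858) and 1.68 for Daglb (SE 0.165, adjusted p = 0.00217). Daglb, a diacylglycerol lipase, was at 26.9 and 23.1 CPM in SSMs from ndLN and at 85.0 and 75.5 CPM in SSMs from tdLN. In ndLN, Pla2g6 was called higher in SSMs, at 16.7 and 11.0 CPM against 2.00 and 4.64 CPM in MSMs. Pla2g12a was called lower, with a log2 fold change of -1.15, and is named as the only such gene although it falls outside the naming rule. The list's median log2 fold change was -0.09 in the ndLN comparison, 0.10 in the tdLN comparison, 0.05 for the node in SSMs and 0.34 for the node in MSMs.

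Among other oxygenases and terminal synthases, 16 of 17 genes were tested, Fam213b being listed under its newer symbol Prxl2b as well and counted once. Mgst1 and Mgst2 were called higher in SSMs in both node types, and edgeR called none lower. Ptgis of the same list was lower in SSMs in ndLN, at 0 and 0.0404 CPM against 2.85 and 4.08 CPM in MSMs. Its edgeR adjusted p-value was 0.00172, but a mean count of 26.6 kept it below the minimum. Ptgis falls outside the naming rule and was picked once its values were known. Mgst2, a microsomal glutathione transferase that can make leukotriene C4, was at 15.2 and 11.9 CPM in SSMs from ndLN, at 4.60 and 8.53 CPM in SSMs from tdLN and at 0.291 to 1.54 CPM in MSMs. The SSM and MSM libraries did not overlap, and the log2 fold change was 3.44 in ndLN (SE 0.441, edgeR adjusted p = 0.00111). That of Mgst1, a related transferase, was 3.74 (SE 0.488, adjusted p = 0.00131). Fam213b, a prostaglandin F synthase, was at 7.01 and 8.91 CPM in SSMs from ndLN and at 42.9 and 40.1 CPM in SSMs from tdLN. It was the only gene of this list called for the node in SSMs, with a log2 fold change of 2.40 (SE 0.238, adjusted p = 0.00222). In tdLN it was also called higher in SSMs than in MSMs, which made 3 genes. The list's median was 0.10 in ndLN, 0.42 in tdLN, -0.12 for the node in SSMs and 0.20 for the node in MSMs.

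For breakdown and export, 15 of 16 genes were tested, and Hpgd and Cyp4f18 were called higher in SSMs in both node types. Cyp4f18, which inactivates leukotriene B4, was at 132 and 116 CPM in SSMs from ndLN and at 148 CPM in both libraries from tdLN. In MSMs it was at 12.8 to 19.1 CPM, far below every SSM library. Its log2 fold change was 3.19 in ndLN (SE 0.201, edgeR adjusted p = 5.1e-05). Hpgd, which inactivates prostaglandins, had a log2 fold change of 1.57 (SE 0.263, adjusted p = 0.0043). No gene of this list was called by edgeR for the node in SSMs or MSMs, where 6 and 3 genes had an unadjusted p-value under 0.05 and DESeq2 called 2 and 1. The list's median was -0.03 in ndLN, 0.48 in tdLN, 0.26 for the node in SSMs and -0.07 for the node in MSMs.

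Of the eicosanoid receptors, 11 of 15 were tested, and 4 were called higher in SSMs in each node type. Ltb4r1, the high-affinity leukotriene B4 receptor, was at 56.4 and 59.2 CPM in SSMs from ndLN and at 56.3 and 58.6 CPM in SSMs from tdLN. In MSMs it was at 4.82 to 10.3 CPM. Its log2 fold change in ndLN was 3.16 (SE 0.302, edgeR adjusted p = 0.00032). Cysltr2, a cysteinyl leukotriene receptor, was at 27.9 and 25.7 CPM in SSMs from ndLN and at no more than 1.52 CPM in MSMs, a log2 fold change of 4.91 (SE 0.447, adjusted p = 0.000262). Ptgir, the prostacyclin receptor, had a log2 fold change of 1.60 (SE 0.263, adjusted p = 0.00398). The fourth was Cysltr1, with 1.56 in ndLN, and Ptger4, a prostaglandin E2 receptor, was the only receptor called lower in ndLN, with -1.17. Cysltr1 and Ptger4 fall outside the naming rule and were picked once their values were known. No receptor was called for the node in SSMs or MSMs by edgeR or DESeq2, and 1 receptor in each had an unadjusted p-value under 0.05. In MSMs edgeR called no gene of the other lists either, where 2 arachidonate release genes and 2 oxygenases or synthases had an unadjusted p-value under 0.05 and DESeq2 called none of these. For the difference of node effects edgeR called no gene of the 4 lists, at 3, 2, 4 and 0 genes with an unadjusted p-value under 0.05 in the order given above, and DESeq2 called 1, 1, 0 and 0. The receptors' median was 0.87 in ndLN, -0.07 in tdLN, -0.11 for the node in SSMs and -0.03 for the node in MSMs.

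**Figure D4:**
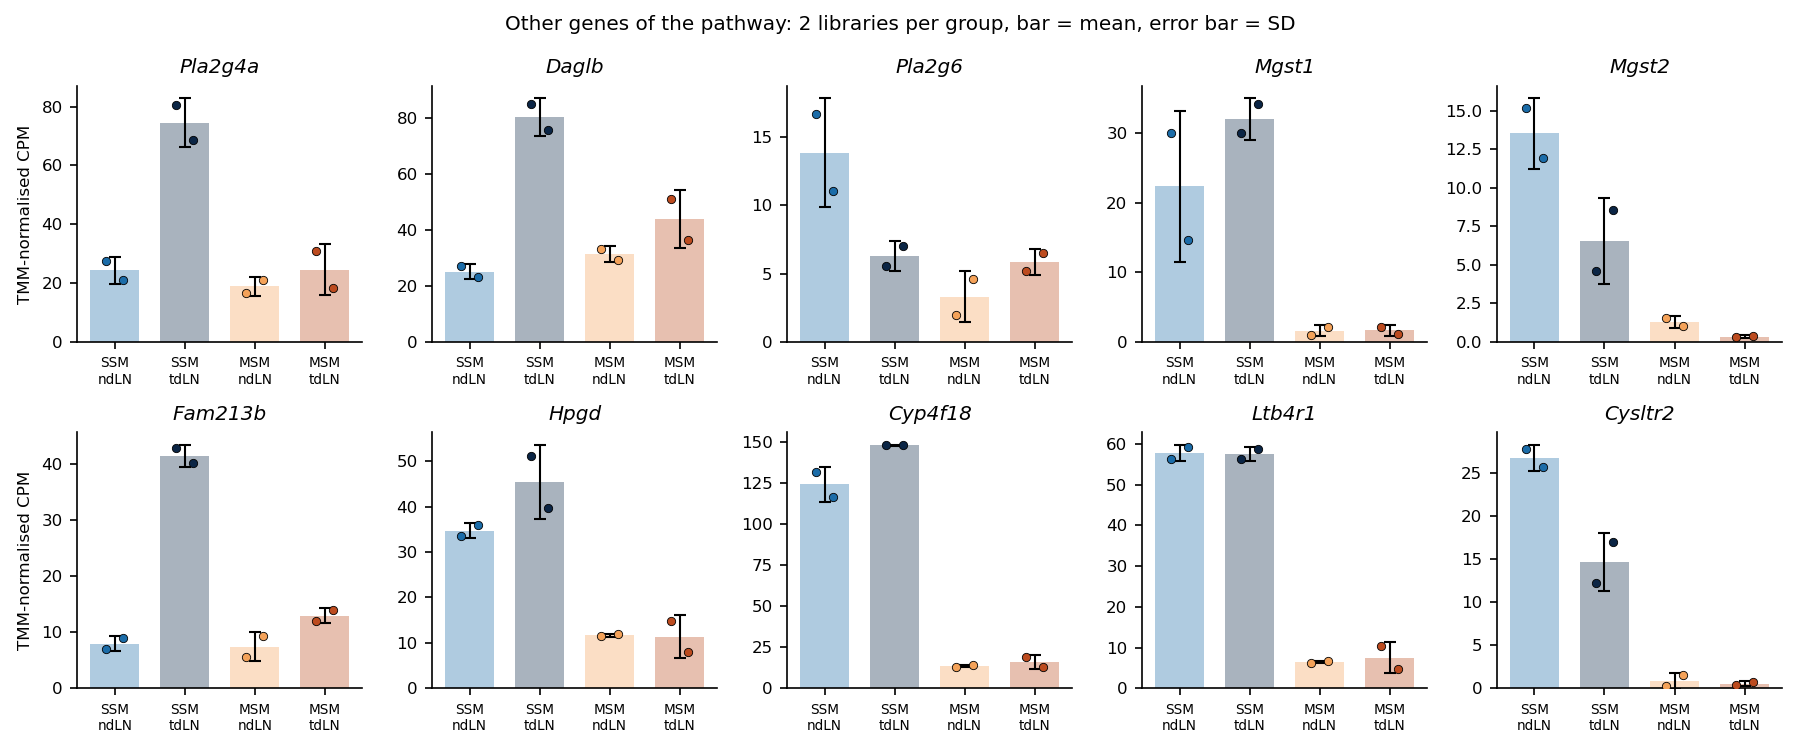
TMM-normalised CPM (vertical axes, each from 0) of 10 other genes of the pathway in SSMs and MSMs from ndLN and tdLN. Points are the 2 libraries of a group, bars their mean and error bars their SD. Pla2g4a, Daglb and Fam213b stand highest in SSMs from tdLN, and Mgst1, Mgst2, Cyp4f18, Ltb4r1 and Cysltr2 are higher in every SSM library than in every MSM library.

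Markers of other cell types moved with several of these genes. Of 13 mast cell markers, 10 were called higher in SSMs than in MSMs in ndLN and 7 in tdLN, where Kit was lower. Their summed level was 2263 to 3345 CPM in SSMs from ndLN, 404 to 864 CPM in SSMs from tdLN, 672 to 691 CPM in MSMs from ndLN and 312 to 409 CPM in MSMs from tdLN. The MSM sums consisted mostly of Kit, at 269 to 615 CPM, and Hdc, while the defining markers Cpa3, Mcpt4 and Tpsb2 were each at or under 1.94 CPM there. Cpa3, a mast cell protease, was at 562 and 311 CPM in SSMs from ndLN and at 36.1 and 113 CPM in SSMs from tdLN. The 2 SSM libraries from tdLN thus had the same order for Cpa3, Alox5, Alox15 and Ptges, with library 2 the higher. Lta4h, Ltc4s, Ptgs1, Hpgds and Tbxas1 had this order too, so most members shared it, and Alox5ap and Ptgs2 had the reverse order. In ndLN, library 1 was the higher for Cpa3 and Alox5 and library 2 for Ptges, while Alox15 stood at 85.4 and 86.7 CPM. The part of mast cell transcripts in the values of these enzymes was not tested.

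Other granulocyte lists also differed. Of 8 eosinophil markers, 2 were called higher in SSMs in ndLN and 1 in tdLN. Their sum was 77.6 to 120 CPM in SSMs from ndLN, 49.9 to 187 CPM in SSMs from tdLN, 35.2 to 41.4 CPM in MSMs from ndLN and 68.8 to 72.8 CPM in MSMs from tdLN. Most of the MSM sums was Ear2, at 30.7 to 69.3 CPM. Epx, an eosinophil peroxidase, had 0 reads in both SSM libraries from ndLN and reached 6.44 CPM in SSM library 2 from tdLN. The SSM means of Prg2, Ear1, Ear2 and Ear6 were also higher in tdLN than in ndLN. Those of Siglecf, Ccr3 and Il5ra were lower, at 28.0, 25.0 and 6.94 CPM in ndLN and 11.8, 12.65 and 2.77 CPM in tdLN. Of 9 neutrophil markers, 2 were called higher in SSMs in ndLN and 4 in tdLN. Their sums were 84.0 to 312 CPM in SSMs from ndLN, 341 to 794 CPM in SSMs from tdLN and 8.51 to 30.7 CPM in MSMs. Csf3r, at 6.26 to 28.7 CPM, was a large part of the MSM sums, and at 54.1 CPM most of the sum in SSM ndLN library 1. Libraries 1 and 2 differed for Ngp in SSMs from ndLN (12.9 and 104 CPM) and for Ltf in SSMs from tdLN (126 and 4.49 CPM). Ly6g was at most 0.628 CPM. Of 3 basophil markers, 1 was called in tdLN and, in ndLN, edgeR called 0 and DESeq2 1, all 3 with an unadjusted p-value under 0.05, and their sum was 9.96 to 51.8 CPM in SSMs and at most 1.25 CPM in MSMs. Of 8 platelet and megakaryocyte markers, 6 were tested, and neither edgeR nor DESeq2 called any in ndLN or tdLN, where 2 and 3 had an unadjusted p-value under 0.05, with sums of 2.72 to 11.6 CPM in all libraries. The part of these transcripts in the members' values was not tested.

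Lymphoid and stromal lists were measured in the same way. All 7 T cell markers were called higher in SSMs in both node types, and their sum was 827 to 1862 CPM in SSMs and 32.7 to 158 CPM in MSMs. Of 8 markers of group 2 innate lymphoid cells, 6 were called higher in SSMs in ndLN and 3 in tdLN, with sums of 408 to 472 CPM in SSMs from ndLN, 153 to 183 CPM in SSMs from tdLN and 26.6 to 44.3 CPM in MSMs. Of 7 B cell markers, edgeR called 0 in ndLN, where DESeq2 called 1 and 4 had an unadjusted p-value under 0.05, and 1 as lower in tdLN, with sums of 27.3 to 55.9 CPM. Of 6 markers of lymphatic endothelium, 1 was called higher in SSMs in ndLN and 0 in tdLN, where DESeq2 called 1 and 2 had an unadjusted p-value under 0.05, with sums of 50.7 to 81.6 CPM in SSMs and 32.1 to 44.1 CPM in MSMs. Between tdLN and ndLN in SSMs, 8 of 12 macrophage markers were called higher and 2 of 13 mast cell markers lower, together with 1 basophil and 1 neutrophil marker higher and 1 T cell and 1 innate lymphoid marker lower, beside the higher values of Ptgs2, Alox5ap and Tbxas1 and the lower values of Ptges. Their part in these values was not tested.

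**Figure D5:**
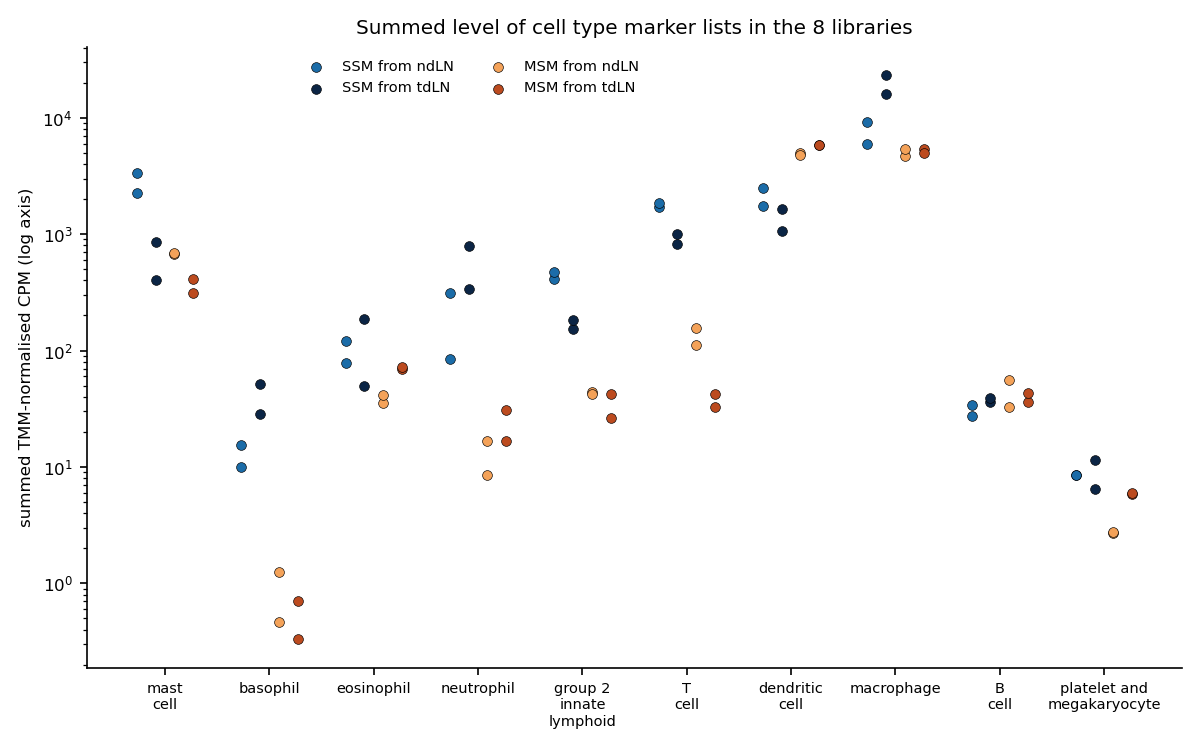
Summed TMM-normalised CPM (vertical log axis) of 10 marker lists in the 8 libraries, with colours for the 4 groups. The mast cell sum is highest in SSMs from ndLN, at 2263 to 3345 CPM, the macrophage sum in SSMs from tdLN, at 15920 to 23170 CPM, and the dendritic cell sum in MSMs, at 4738 to 5831 CPM.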

How the data were processed

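SSMs and MSMs were sorted from lymph nodes and profiled by SMART-Seq RNA sequencing. The authors aligned the reads to mm10 with STAR 2.5.3a, after Trimmomatic 0.36 and bcl2fastq 2.20.0.422 per the submitters' processing notes, and deposited raw gene counts of 16 samples in a single table. The deposited counts of lanes 3 and 4 of each library were within sampling noise of each other (chi-square per degree of freedom 0.955 to 1.02, against 29.3 to 53.1 between libraries of a group) and were summed, which gave 8 libraries. All columns were mapped to samples. Symbols came from GENCODE M21, which matched 55154 gene IDs, and 2 added sequences, with 6 and 0 counts, were left out. The strand setting and counting mode are not given in the sources used here.

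The filter kept the 21085 genes that reached 10 counts in total and had reads in 2 or more samples. Counts were normalised by TMM (factors 0.902 to 1.15) and fitted with group and pool in edgeR 4.0.16 under R 4.3.3, all 4 groups together, with Benjamini-Hochberg adjustment over all genes tested. Calls required a mean normalised count over 100 per lane, equal to 4.43 CPM, besides an adjusted p-value below 0.01. The standard error of a log2 fold change was derived from the F statistic. Pools pair the libraries because, by the study's methods, each pool supplied all 4 sample types. The labels do not name pools, and their numbers were taken as pool numbers. Deviations of same-numbered libraries from their group means correlated between -0.194 and 0.148 over 9988 genes. DESeq2 1.42.0, other filters and scalings, single lanes, only the groups compared, a Holm adjustment, looser cut-offs, the model without pool and each library left out were alternatives. Floors and counting limits cover counting error only. Python 3.11.15, numpy 2.4.6, pandas 2.3.3 and matplotlib 3.10.9 were used.

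All 10 members were named, with at most 3 called genes with the largest change from each pathway list, the 3 genes most alike to each member above the mean count, and the defining genes of marker lists. The members and lists were chosen with earlier results of these data known.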

Additional observations from a re-analysis of the deposited data

How the results depend on the processing

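With the replicate block for pool removed, the members called numbered 4, 2 and 0 for SSMs over MSMs in ndLN, in tdLN and for the node in SSMs, as with it, and 0 for the other comparisons. The removal changed no call of a member. In ndLN the count fell to 2 with only the groups compared and to 0 with a Holm adjustment, and it was 0 to 3 with a library left out. In tdLN it was 0 with Holm, 1 with the legacy quasi-likelihood fit and 0 to 2 with a library left out. For the node in SSMs it rose from 0 to 3 with DESeq2, 1 with filterByExpr, 2 on lane 3, 1 on lane 4 and 4 at an adjusted p-value under 0.05 without a minimum count, and it was 0 to 1 with a library left out. The cause was not tested. For the node in MSMs and the difference of node effects the count was 0 under every alternative run. The main fit called only 5 and 8 genes of the whole table there, so such a count cannot show that the members are stable. Ptgs2 for the node in SSMs passed with DESeq2 and filterByExpr (adjusted p = 0.00709) and on lanes 3 and 4 (0.00526 and 0.00567), and for SSMs over MSMs in tdLN with only the groups compared (0.00886). Tbxas1 in ndLN lost its call with DESeq2 size factors (0.0102), without a filter (0.011), with the legacy fit (0.0108) and with only the groups compared (0.0303), and Alox5ap with the last (0.0361). Alox15 in tdLN lost its call with the last (0.0332) and with the legacy fit (0.0104).

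Over all genes, calls in ndLN numbered 2544, and 207 with Holm, 946 with only the groups compared and 4937 at the looser cut-offs. In tdLN they numbered 1832, and 108 with Holm, 2990 with DESeq2 and 3534 at the looser cut-offs. For the node in SSMs they numbered 639, and 7 with Holm and 1932 with DESeq2. In ndLN, in tdLN and for the node in SSMs, calls over all genes also fell whenever a library of a compared group was left out. Calls of members lost in this way are therefore not particular to the members. For the node in MSMs they numbered 5, and 496 with DESeq2. For the difference of node effects they numbered 8, and 87.5% of these had a higher log2 fold change of tdLN over ndLN in SSMs than in MSMs. With DESeq2 size factors they numbered 4, 100% of them in this direction. DESeq2 size factors moved the median log2 fold change by no more than 0.05 in size.

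Of the 50 single values, those that reversed under an alternative other than a library left out were all uncalled. For Lta4h and the node in MSMs, the log2 fold change was -0.0246 with DESeq2, -0.0253 with its size factors, -0.000383 on lane 3 and -0.0224 with only the groups compared. For Hpgds it was -0.00864 with the size factors and -0.0315 on lane 3 in MSMs, 0.00051 on lane 3 in SSMs and 0.032 on lane 3 for the difference of node effects. For Alox15 the latter was 0.33 without the block and 0.11 on lane 4. With a library left out, these uncalled values crossed 0. For SSMs over MSMs in ndLN, the log2 fold change spanned -0.21 to 0.69 for Hpgds. For SSMs over MSMs in tdLN, the log2 fold change spanned -0.27 to 0.54 for Lta4h, -0.067 to 0.17 for Hpgds and -0.71 to 0.32 for Tbxas1. For the node in SSMs, the log2 fold change spanned -2.16 to 0.00318 for Alox15, -1.0 to 0.40 for Ltc4s, -0.36 to 1.16 for Ptgs1 and -0.34 to 0.14 for Hpgds. For the node in MSMs, the log2 fold change spanned -0.75 to 1.59 for Alox5, -1.78 to 0.028 for Alox15, -0.42 to 0.39 for Lta4h, -0.19 to 0.90 for Ptgs2 and -0.36 to 0.54 for Hpgds. For the difference of node effects, the log2 fold change spanned -1.22 to 0.95 for Alox15, -0.76 to 0.0499 for Lta4h and -0.64 to 0.26 for Hpgds.

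Alternatives were run for the members and the whole-table counts only, not for the pathway and marker lists. With 2 libraries a group, many calls near the threshold depended on single libraries. Ltc4s, Ptgs1 and Ptges have too few reads to meet the minimum count, and folds of Ptges against MSMs from ndLN are bounds.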
